A study of Homo sapiens with 6 samples.

Results

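The chaperones that fold newly made proteins in the cytosol, with the chaperonin TRiC, were examined in Jurkat cells after SATB1 was lowered. They were listed as 45 gene symbols, and matching the Ensembl identifiers of the count tables to GENCODE 29 gave 46 rows of 58735, since HSPA14 stands under 2 identifiers. Not all members are cytosolic chaperones: HSPA9, HSPD1, HSPE1, TRAP1 and GRPEL1 act in mitochondria, and HSF1 and HSF2 are transcription factors of the heat shock response. Jurkat is an established human T cell leukaemia line. The 3 shCtrl libraries came from cells infected with a lentivirus that carries a control short hairpin RNA, and the 3 shSATB1 libraries from cells infected with one that carries a hairpin against SATB1, a chromatin organiser of T cells. Both groups thus share lentiviral infection and hairpin expression, and the series' design text names 1 vector per group. Not given in the sources used here: the time after infection, any selection, and whether replicates were separate cultures. The p-values therefore cover the spread between the 3 libraries of a group alone, and that spread may be technical. In bulk RNA, fewer cells of a type and less RNA per cell cannot be told apart, and CPM (a gene's reads scaled to library size after TMM adjustment) shows only levels relative to all other transcripts.

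A chaperone binds unfolded protein and releases it in a form that can fold. TRiC is a double ring built from 8 related subunits that encloses actin, tubulin and other clients, and prefoldin, a smaller complex, hands clients to it. HSP70 proteins bind exposed stretches of chains as they leave the ribosome, J-domain proteins deliver clients to them and nucleotide exchange factors release these. HSP90 acts late on kinases and receptors with a set of co-chaperones. HSF1 raises many of these genes when unfolded protein accumulates, and dividing T cells and leukaemias, which make much protein, are rich in them.

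The libraries held between 26626539 and 28913623 reads in genes, where 3 reads correspond to 0.104 to 0.113 CPM. SATB1 stood at 258.5 to 279.1 CPM in shCtrl and at 100.2 to 104.1 CPM in shSATB1. The 8 T cell markers examined summed to 2463 to 2795 CPM in shCtrl and 2691 to 2768 CPM in shSATB1, of which PTPRC and TRAC rose and CD3D, CD247 and TRBC1 fell. Summed markers of B cells were 55.4 to 65.2 CPM in shCtrl and 48.2 to 56.1 CPM in shSATB1, nearly all CD79A. Those of epithelium and fibroblasts were 14.7 to 17.4 and 20.4 to 21.7 CPM, nearly all COL1A1. Myeloid markers summed to at most 2.26 CPM and erythroid markers to at most 0.291 CPM in any library, with HBA1 and EPCAM at 0 in all 6. The share of reads outside annotated exons, which takes in introns of annotated genes, is called the unannotated share below. Out of all reads of a count table, with its summary lines, it was 10.2, 7.77 and 9.36% for shCtrl 1, 2 and 3, against 11.7, 10.9 and 11.6% for shSATB1 1, 2 and 3. It moved with the chaperone levels, and its part in them was not tested beyond the covariate fit given below: shCtrl 2, with the lowest share, had the highest CPM of all 6 libraries for 39 of 44 tested members.

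Most chaperone transcripts were lower in shSATB1, none by 2-fold. Of 44 tested members 33 fell and 0 rose (quasi-likelihood test of edgeR, adjusted p under 0.05 by Benjamini-Hochberg), and 11 did not pass. Over all 17520 genes tested 16.6% fell and 14.3% rose, and among the 8235 genes with a mean of at least 20 CPM, a limit chosen after seeing the data, 27.7% fell, against 32 of 43 members there. The same shares are the background for the counts by role given below. All shSATB1 libraries lay below all shCtrl libraries for 36 members, against 23.4% of tested genes. The other 2 rows, HSPA1A and HSPA1B, held 0 reads in every library and were not tested.

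The median log2 fold change of the tested members was -0.35, against 0.01 over all genes tested and -0.04 over genes of at least 20 CPM. Single members lay between -0.78 (HSPA9) and 0.14 (BAG3), 42 of 44 were negative, and none fell by 2-fold. At an unadjusted p under 0.05, 0 of the 2 positive members passed, and DESeq2 and limma-voom called 0 rises as well. Together the 46 rows took 1.87 ± 0.102% of reads in genes in shCtrl (mean ± SD, n = 3) and 1.46 ± 0.0167% in shSATB1. By library this was 1.79, 1.98 and 1.83% for shCtrl 1, 2 and 3, against 1.48, 1.45 and 1.45% for shSATB1 1, 2 and 3, with no overlap.

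**Figure D1:**
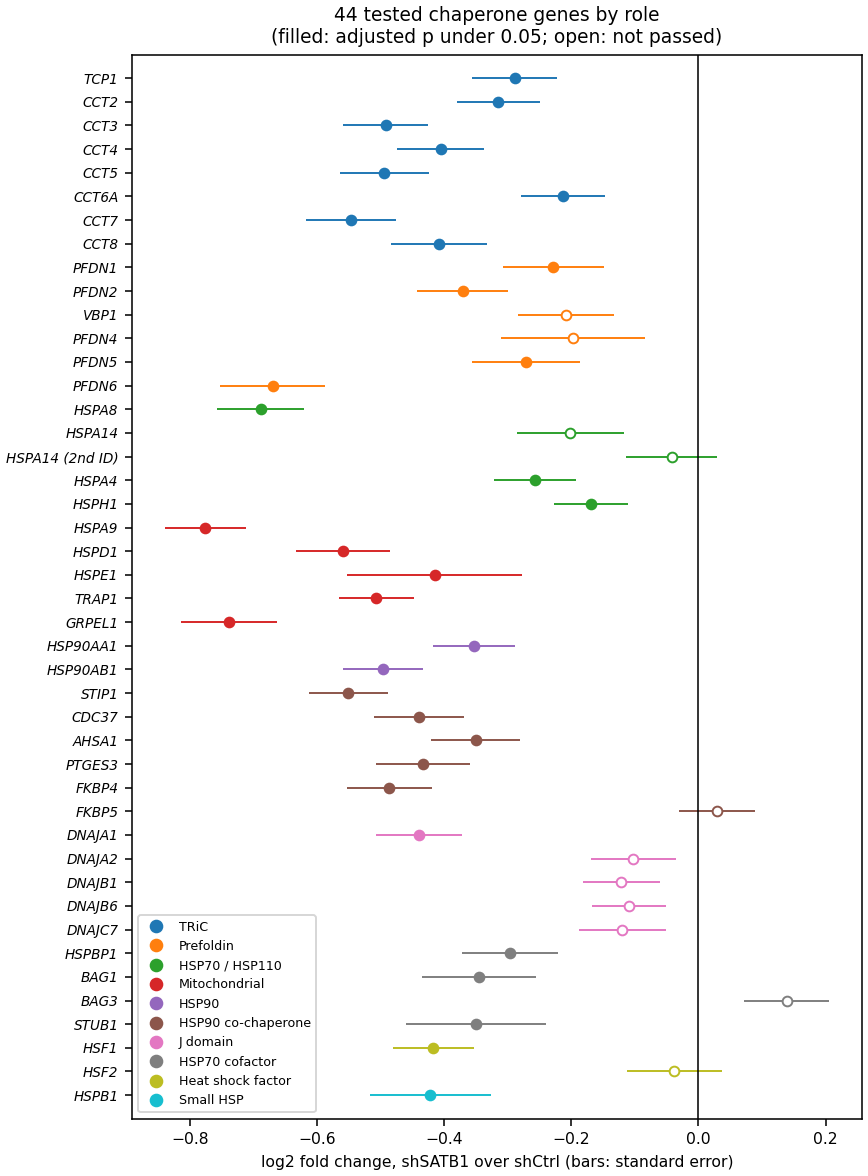
Log2 fold change of each tested member in shSATB1 over shCtrl (x axis) with its standard error, grouped by role. Filled points passed at an adjusted p under 0.05, and all of them lie left of 0; the 8 TRiC subunits and the 5 mitochondrial members are filled throughout, whereas 4 of the 5 J-domain members are open.

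With the unannotated share as a covariate, 15 of 44 members (34.1%) fell and 0 rose, against 7.20% of all genes falling. These 15 were CCT3, CCT5, CCT7, PFDN6, HSPA8, HSPA9, HSPD1, TRAP1, GRPEL1, HSP90AA1, HSP90AB1, STIP1, FKBP4, DNAJA1 and HSF1. Since all shSATB1 libraries had a higher unannotated share than all shCtrl libraries, its part and that of the group cannot be told apart by this fit. Each fit also estimated the spread between libraries anew, so adjusted p-values and counts of different fits are not on the same scale. For some members, such as HSPA9, the adjusted p was lower with the covariate although the fold change was smaller. A lower value there is not stronger evidence. With offsets for exonic length, 29 members (65.9%) fell, against 15.6% of all genes, and BAG3 rose (log2 0.26, adjusted p = 0.00366, edgeR).

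**Figure D2:**
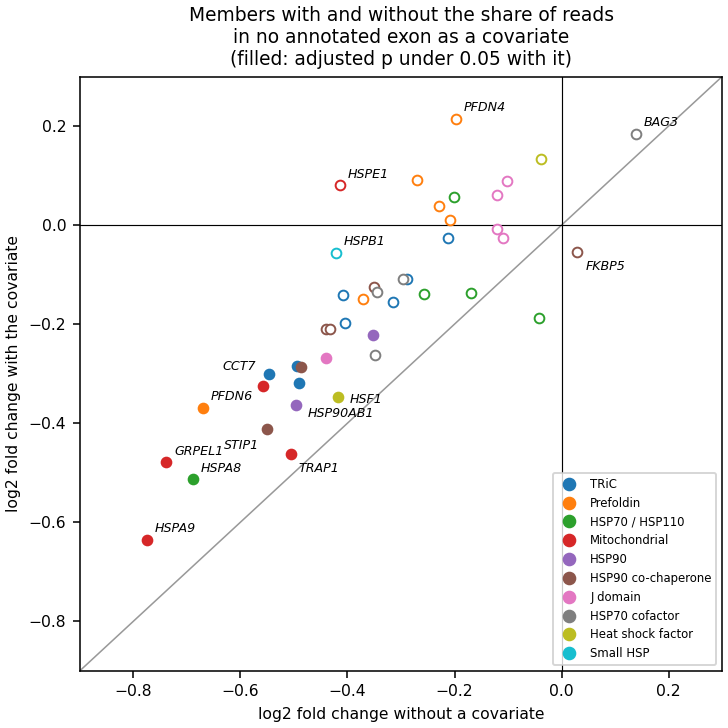
Log2 fold change of each tested member without a covariate (x axis) and with the unannotated share as a covariate (y axis), with the line of equal values. Filled points passed with the covariate: HSPA9, GRPEL1, HSPA8, STIP1 and TRAP1 lie lowest, and most other points move up towards 0, with 9 members past it (PFDN4, HSF2, PFDN5, DNAJA2, HSPE1, DNAJC7, HSPA14, PFDN1 and VBP1).

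All 8 subunits of TRiC fell. CCT7 (ENSG00000135624, chromosome 2, 73233420 to 73253021, plus strand, hg38) had the largest change among them and stood at 776, 924 and 812 CPM in shCtrl 1, 2 and 3, against 565, 591 and 564 CPM in shSATB1 1, 2 and 3. The groups did not overlap, and CCT7 fell 1.46-fold (log2 -0.55, SE 0.0712, adjusted p = 9.76e-05, edgeR). CCT5 (chromosome 5, 10249921 to 10266412, plus strand) stood at 504, 591 and 513 CPM in shCtrl, against 389, 382 and 371 CPM in shSATB1, replicates 1 to 3 in order here and below. CCT3 (chromosome 1, 156308968 to 156367873, minus strand) stood at 653, 739 and 659 CPM in shCtrl, against 499, 495 and 465 CPM in shSATB1. For both genes shCtrl 2 was the highest library and every shSATB1 library lay below every shCtrl library, with falls of 1.41-fold (adjusted p = 0.000181) and 1.41-fold (adjusted p = 0.000142).

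The middle of the range held CCT8 and CCT4. CCT8 stood at 535, 663 and 578 CPM in shCtrl, against 453, 446 and 439 CPM in shSATB1, and CCT4 at 368, 436 and 396 CPM in shCtrl, against 301, 301 and 303 CPM in shSATB1. The shSATB1 values of CCT4 were almost equal, and the groups of both genes did not overlap. CCT8 fell 1.33-fold (adjusted p = 0.00118) and CCT4 1.32-fold (adjusted p = 0.000652). The smallest changes were those of CCT2, TCP1 and CCT6A. CCT2 stood at 483, 549 and 496 CPM in shCtrl, against 418, 407 and 404 CPM in shSATB1 and fell 1.24-fold (adjusted p = 0.00245). TCP1, the first subunit described, stood at 791, 908 and 816 CPM in shCtrl, against 698, 689.8 and 670.3 CPM in shSATB1 and fell 1.22-fold (adjusted p = 0.00484). CCT6A stood at 516, 594 and 535 CPM in shCtrl, against 475, 478 and 466 CPM in shSATB1 and fell 1.16-fold (adjusted p = 0.0246). In all 3 genes shCtrl 2 was highest and no library of a group reached the other group. The CCT6A call ended without shCtrl replicate 3 or any 1 of the 3 shSATB1 libraries, and with the length offsets. With the covariate the median log2 fold change of the 8 subunits went from -0.41 to -0.18. CCT7 was then at -0.30 (adjusted p = 0.00123), CCT5 at -0.28 (adjusted p = 0.00476) and CCT3 at -0.32 (adjusted p = 0.00111), smaller falls that still passed. The other 5 no longer passed, with CCT4 at -0.20, CCT2 at -0.16, CCT8 at -0.14, TCP1 at -0.11 and CCT6A at -0.03.

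**Figure D3:**
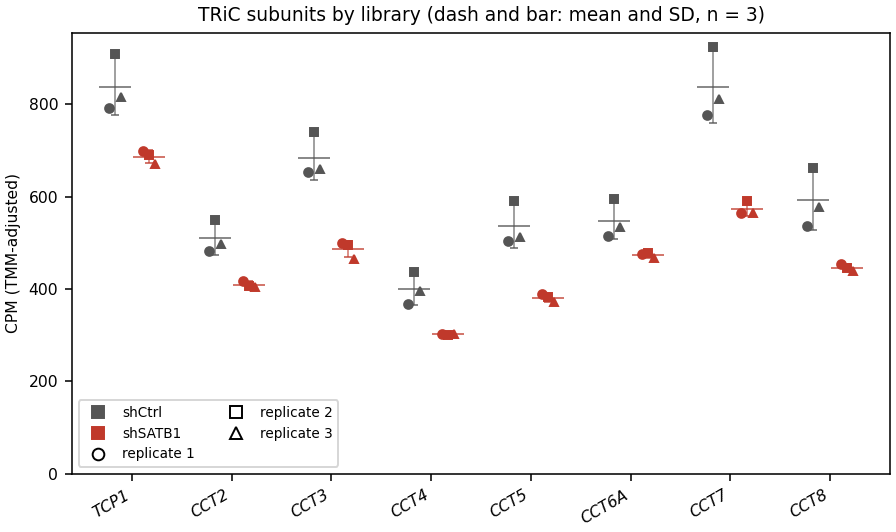
CPM of the 8 TRiC subunits (y axis, from 0) in each library, shCtrl in grey and shSATB1 in red, with the mean and SD of each group (n = 3). In every subunit the 3 shSATB1 points lie close together below the 3 shCtrl points, and the square of shCtrl 2 is the highest.

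Summed over the 8 subunits, TRiC transcripts stood at 4625, 5404 and 4807 CPM for shCtrl 1, 2 and 3, against 3798, 3790.1 and 3684 CPM for shSATB1 1, 2 and 3. For levels per kilobase of exon, all annotated exons of a gene were joined, which is not the length of 1 transcript. On this scale CCT7 had the highest control level (233 ± 21.5 CPM per kb) and CCT5 the lowest (91.8 ± 8.15). The ranking depends on that annotation, with 5839 bases for CCT5 and 2830 for CCT4. In CPM the control mean was 536 for CCT5 and 400 for CCT4. The CCT5 level is also uncertain because 30.1% of its exonic bases lie in exons of AC012640.4, on the other strand. The strand setting of the counting is not given. The complex holds the subunits in equal number, while the shares of their transcripts differed between the groups. As a share of the summed CPM per kb, CCT6A went from 11.3% ± 0.101 to 12.9% ± 0.0629 and TCP1 from 13.7% ± 0.139 to 14.8% ± 0.103. CCT7 went the other way, from 18.8% ± 0.162 to 16.96% ± 0.387, as did CCT3, from 13.7% ± 0.268 to 12.9% ± 0.285. CCT4 and CCT8 kept nearly the same share, from 11.4% ± 0.194 to 11.3% ± 0.229 and from 14.3% ± 0.395 to 14.2% ± 0.111. These shares are a description, and differences between subunits were not tested.

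Of the 6 prefoldin subunits 4 fell and VBP1 and PFDN4 did not pass. PFDN6 (chromosome 6, 33289302 to 33298401, plus strand) stood at 63.1, 80.9 and 71.9 CPM in shCtrl, against 44.5, 44.9 and 46.3 CPM in shSATB1. Its shSATB1 values were close together and all under the lowest shCtrl value, and it fell 1.59-fold (log2 -0.67, SE 0.0826, adjusted p = 6.64e-05). Exons of neighbouring genes cover 34.9% of PFDN6's exonic bases, mostly on the other strand. PFDN2, a subunit of the beta type, stood at 75.9, 89.7 and 82.3 CPM in shCtrl, against 60.4, 65.1 and 66.1 CPM in shSATB1 and fell 1.29-fold (adjusted p = 0.00175). PFDN5, of the alpha type and also known as a MYC-binding protein, stood at 144, 188 and 156 CPM in shCtrl, against 135, 139 and 130.2 CPM in shSATB1 and fell 1.21-fold (adjusted p = 0.0264). Neither gene's groups overlapped, but for PFDN5 shCtrl 1 lay only just above shSATB1 2. PFDN1 fell from 45.5 ± 4.37 to 38.9 ± 1.78 CPM (adjusted p = 0.0418). VBP1, the alpha subunit named for its binding to the VHL protein, went from 89.8 ± 9.36 to 77.8 ± 3.16 CPM (adjusted p = 0.0507) and PFDN4 from 34.4 ± 6.77 to 30.03 ± 2.01 CPM (adjusted p = 0.205). With the covariate PFDN6 alone passed (log2 -0.37, adjusted p = 0.00856), PFDN2 was at -0.15, and PFDN1, PFDN5, VBP1 and PFDN4 turned positive without passing. The calls of PFDN1 and PFDN5 also ended with 5 of the 6 single libraries left out, all but shCtrl 1.

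The constitutive HSP70 gene HSPA8 (HSC70, chromosome 11, 123057489 to 123063230, minus strand) stood at 2416, 2768 and 2471 CPM in shCtrl 1, 2 and 3, against 1628, 1585 and 1536 CPM in shSATB1 1, 2 and 3. The lowest shCtrl library was well above the highest shSATB1 library, and HSPA8 fell 1.61-fold (log2 -0.69, SE 0.0679, adjusted p = 1.11e-05). With the covariate the log2 fold change was -0.51 (adjusted p = 5.62e-08). HSPA8 has 17 pseudogenes named after it, and 8.23% of its 50-base stretches occur in transcripts of other genes. The HSP110 proteins, relatives of HSP70 that act as its nucleotide exchange factors, had smaller fold changes, a difference from HSPA8 that was not tested. HSPA4 stood at 398, 436 and 389 CPM in shCtrl, against 353, 339 and 332 CPM in shSATB1 and fell 1.19-fold (adjusted p = 0.00795). HSPH1 stood at 318, 331 and 318 CPM in shCtrl, against 295, 279 and 287 CPM in shSATB1 and fell 1.12-fold (adjusted p = 0.0412). The groups overlapped for neither, yet the HSPA4 call ended without shSATB1 replicate 3 and the HSPH1 call under 7 of 15 alternatives. With the covariate neither passed (log2 -0.14 for HSPA4 and -0.14 for HSPH1). HSPA14, a ribosome-linked HSP70, did not pass under either identifier, at 39.9 ± 4.64 to 34.7 ± 1.12 CPM (adjusted p = 0.0844) and 53.4 ± 3.11 to 51.9 ± 3.10 CPM (adjusted p = 0.691).

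The stress-inducible HSP70 genes HSPA1A (chromosome 6, 31815464 to 31817946, plus strand) and HSPA1B (chromosome 6, 31827735 to 31830255, plus strand) held 0 reads in all 6 libraries, which allows up to 3 reads, or 0.104 to 0.113 CPM, counting error only. Their transcripts share 71.3% and 71.4% of their 50-base stretches with each other, and the tables set reads without a unique alignment apart from genes. Exons of AL671762.1, on the same strand, cover 36.5% of the exonic bases of HSPA1B. HSPA1L, beside HSPA1A, and AL671762.1 were also at 0. No fold can be given for these genes.

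Of the members that act in mitochondria all 5 fell, with a median log2 fold change of -0.56. HSPA9 (mortalin, the mitochondrial HSP70 and motor of protein import, chromosome 5, 138553756 to 138575724, minus strand) had the largest change of all members. It stood at 525, 578 and 518 CPM in shCtrl, against 317, 319 and 311 CPM in shSATB1. Each group was tight and the groups were far apart, and HSPA9 fell 1.71-fold (log2 -0.78, SE 0.0633, adjusted p = 2.41e-06; with the covariate log2 -0.64, adjusted p = 2.07e-09). GRPEL1, its nucleotide exchange factor, stood at 89.0, 108 and 96.3 CPM in shCtrl, against 55.8, 59.5 and 60.8 CPM in shSATB1. It fell 1.67-fold (log2 -0.74, adjusted p = 1.58e-05; with the covariate log2 -0.48, adjusted p = 0.000148), with no overlap. TRAP1, the HSP90 of mitochondria, fell from 107 ± 1.09 to 75.4 ± 2.04 CPM (adjusted p = 3.98e-05), and its value hardly moved with the covariate (log2 -0.51 without and -0.46 with it). Exons of DNASE1 and AC006111.2 cover 29.3% of TRAP1's exonic bases, mostly on the other strand, so its level is uncertain.

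HSPD1 and HSPE1 encode HSP60 and HSP10, the barrel and the lid of the mitochondrial chaperonin, and are read in opposite directions from start sites 104 bases apart on chromosome 2 (RefSeq, GRCh38.p14). The 30 bases shown lie between those start sites (chr2:197500345-197500374 (plus strand), HSPE1 to the right) and are given because both genes start beside them; the capitals mark CACGTG, the E box motif.
HSPD1-HSPE1: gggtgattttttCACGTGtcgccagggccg
HSPD1 stood at 1178, 1425 and 1234 CPM in shCtrl, against 899, 857 and 849 CPM in shSATB1. Every shSATB1 library was below every shCtrl library, and HSPD1 fell 1.47-fold (log2 -0.56, adjusted p = 0.000114; with the covariate log2 -0.33, adjusted p = 0.000775). HSPE1 was counted at 229, 343 and 299 reads in shCtrl, against 209, 227 and 237 reads in shSATB1, or 8.22, 12.5 and 11.0 CPM in shCtrl, against 7.61, 8.01 and 8.17 CPM in shSATB1. Its lowest shCtrl library, shCtrl 1, nearly touched shSATB1 3. HSPE1 fell 1.33-fold (adjusted p = 0.0344), but the call ended in 8 of 15 alternatives, and with the covariate the log2 fold change was 0.08. Per kilobase of exon HSPD1 stood at 301 and HSPE1 at 5.35 CPM per kb in shCtrl. HSPE1 overlaps the readthrough gene HSPE1-MOB4 and has 26 pseudogenes named after it, so its level is uncertain. HSPD1 has 17 pseudogenes named after it, and 18.4% of its 50-base stretches occur in transcripts of other genes. The level of HSPD1 is thus uncertain as well.

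Both cytosolic HSP90 genes fell. HSP90AB1, the constitutive form (chromosome 6, 44246166 to 44253888, plus strand), stood at 2681, 2962 and 2726 CPM in shCtrl, against 1967, 1986 and 1981 CPM in shSATB1. The shSATB1 libraries were almost equal and far under shCtrl, and HSP90AB1 fell 1.41-fold (log2 -0.50, SE 0.0628, adjusted p = 7.86e-05). HSP90AA1, the inducible form (chromosome 14, 102080738 to 102139699, minus strand), stood at 2139, 2392 and 2157 CPM in shCtrl, against 1795, 1711 and 1731 CPM in shSATB1 and fell 1.28-fold (log2 -0.35, adjusted p = 0.00122), also without overlap. With the covariate the log2 fold change was -0.22 for HSP90AA1 (adjusted p = 0.0198) and -0.36 for HSP90AB1 (adjusted p = 2.93e-05). The ratio of HSP90AA1 to HSP90AB1 in CPM was 0.798, 0.808 and 0.791 for shCtrl 1, 2 and 3, against 0.913, 0.861 and 0.874 for shSATB1 1, 2 and 3. It was higher in every shSATB1 library, a difference that was not tested. Of the 50-base stretches, 14.0% for HSP90AA1 and 16.6% for HSP90AB1 occur in transcripts of other genes, so the ratio itself is uncertain.

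Of 6 co-chaperones of HSP90, 5 fell. STIP1 (HOP), which links HSP70 to HSP90, stood at 493, 544 and 504 CPM in shCtrl, against 348, 357 and 348 CPM in shSATB1. FKBP4, an immunophilin of steroid receptor complexes, stood at 239, 279 and 257 CPM in shCtrl, against 182, 187 and 184 CPM in shSATB1. CDC37, which brings kinases to HSP90, stood at 208, 244 and 219.8 CPM in shCtrl, against 155, 170.3 and 169 CPM in shSATB1. In all 3 genes the groups were apart, and they fell 1.46-fold (adjusted p = 3.04e-05), 1.40-fold (adjusted p = 0.000143) and 1.36-fold (adjusted p = 0.000494). AHSA1, an activator of the HSP90 ATPase, fell from 243 ± 20.3 to 191 ± 7.28 CPM (adjusted p = 0.00192), and PTGES3 (p23), which stabilises the closed form, from 488 ± 49.2 to 361 ± 12.1 CPM (adjusted p = 0.000693). With the covariate STIP1 (log2 -0.41) and FKBP4 (log2 -0.29) still passed, whereas CDC37 (log2 -0.21), AHSA1 (log2 -0.12) and PTGES3 (log2 -0.21) did not. FKBP5, a relative of FKBP4 and a glucocorticoid response gene, did not pass, at 102, 97.8 and 104 CPM in shCtrl, against 105, 99.2 and 105 CPM in shSATB1 (log2 0.03, adjusted p = 0.747). Its groups overlapped, and its direction turned with the covariate and with the length offsets.

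**Figure D4:**
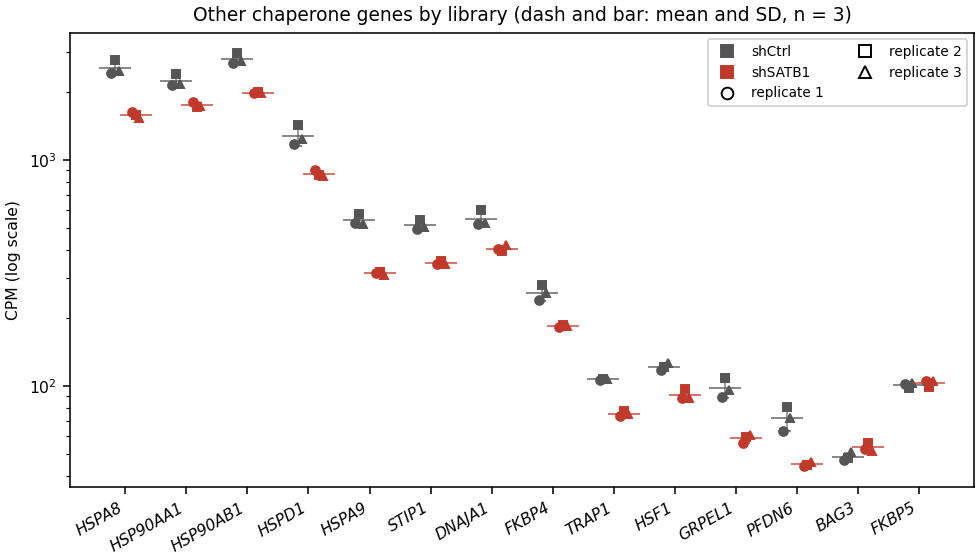
CPM on a log scale (y axis) of 14 members outside TRiC in each library, shCtrl in grey and shSATB1 in red, with the mean and SD of each group (n = 3). The groups are apart for the first 12 genes, from HSPA8 to PFDN6, all lower in shSATB1; BAG3 lies slightly higher in shSATB1, and FKBP5 overlaps.

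Of 5 J-domain proteins DNAJA1 fell and 4 did not pass. This count lies near the 16.6% of all genes tested that fell, and nothing is read from it. DNAJA1, a main partner of HSPA8, stood at 521, 600.2 and 527 CPM in shCtrl, against 402, 395 and 418 CPM in shSATB1, without overlap. It fell 1.36-fold (log2 -0.44, adjusted p = 0.000374; with the covariate log2 -0.27, adjusted p = 0.00990). DNAJB1 (HSP40, a heat shock gene) stood at 208, 221 and 209 CPM in shCtrl, against 189, 204 and 194 CPM in shSATB1. The groups did not overlap, but the gap between them was smaller than the spread within shSATB1, with a log2 fold change of -0.12 and an adjusted p of 0.147 (edgeR). DNAJA2, DNAJB6 and DNAJC7 had log2 fold changes of -0.10, -0.11 and -0.12 (adjusted p = 0.275, 0.176 and 0.203). With the length offsets DNAJB6 and DNAJC7 passed as lower.

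Among the other cofactors of HSP70, 3 of 4 fell. STUB1 (CHIP), the ubiquitin ligase that marks chaperone clients, stood at 24.4, 27.6 and 26.8 CPM in shCtrl, against 18.3, 18.7 and 24.9 CPM in shSATB1. shSATB1 3 lay within the shCtrl range, and STUB1 fell 1.27-fold (adjusted p = 0.0272), with 42.4% of its exonic bases in exons of JMJD8 on the other strand. BAG1, an exchange factor that links HSP70 to the proteasome, stood at 65.4, 78.4 and 60.9 CPM in shCtrl, against 56.1, 49.4 and 55.7 CPM in shSATB1 and fell 1.27-fold (adjusted p = 0.00988). HSPBP1, another exchange factor, stood at 55.6, 64.7 and 66.4 CPM in shCtrl, against 49.1, 53.1 and 49.9 CPM in shSATB1 and fell 1.23-fold (adjusted p = 0.00929). Neither overlapped, and all 3 calls ended with at least 1 library left out and with the covariate (log2 -0.26 for STUB1, -0.13 for BAG1 and -0.11 for HSPBP1). BAG3, which serves selective autophagy and is a heat shock gene, stood at 46.9, 47.9 and 51.0 CPM in shCtrl, against 52.6, 56.2 and 51.8 CPM in shSATB1. It was the single member whose shSATB1 libraries all lay above shCtrl, with a log2 fold change of 0.14 (adjusted p = 0.133) that did not pass. The small heat shock gene HSPB1 (HSP27) stood at 51.1, 65.5 and 58.5 CPM in shCtrl, against 38.7, 47.5 and 44.5 CPM in shSATB1. It fell 1.34-fold without overlap (adjusted p = 0.00425), and with the covariate the log2 fold change was -0.06 (adjusted p = 0.807).

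HSF1, the main heat shock transcription factor, stood at 118, 122 and 126 CPM in shCtrl 1, 2 and 3, against 88.4, 96.9 and 88.2 CPM in shSATB1 1, 2 and 3. All shSATB1 libraries were below all shCtrl libraries, and HSF1 fell 1.33-fold (log2 -0.42, SE 0.0634, adjusted p = 0.000315; with the covariate log2 -0.35, adjusted p = 0.00440). HSF2, a relative active in development, stood at 42.0, 48.8 and 42.4 CPM in shCtrl, against 44.7, 41.7 and 43.4 CPM in shSATB1 and did not pass (log2 -0.04, adjusted p = 0.739). Its groups overlapped, and its direction turned under 3 alternatives.

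HSF1 binds inverted repeats of GAA, the heat shock element, and promoter windows of the members were searched for it. RefSeq windows (GRCh38.p14, 250 bases before to 50 after a start) were found for 38 of the 45 symbols, in 56 windows. An inverted pair of units, GAANNTTC or TTCNNGAA, each of which reads the same on both strands and which can overlap, was in 18 of 56 windows (32.1%), against 13.5% of all 35116 windows. A run of 3 units, GAANNTTCNNGAA on either strand, which holds both pairs, was in 6 of 56 (10.7%), against 0.490% of all. The E box CACGTG was in 10.7% of member windows and 7.26% of all. The 6 genes with a run of 3 units are shown because they carry the fullest match; each line runs 5′ to 3′ along the gene, and the capitals mark the run nearest the start.
HSPA8: cgggccccTTCTGGAAGGTTCtaagatag
HSP90AB1: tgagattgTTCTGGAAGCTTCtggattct
HSP90AA1: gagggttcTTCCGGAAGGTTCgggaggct
HSPD1: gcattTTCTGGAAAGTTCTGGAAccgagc
DNAJA1: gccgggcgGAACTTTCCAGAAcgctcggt
DNAJB6: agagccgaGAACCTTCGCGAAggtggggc
The stretches lie at chr11:123062171-123062199 (minus strand), chr6:44247823-44247851 (plus strand), chr14:102087112-102087140 (minus strand), chr2:197500062-197500090 (minus strand), chr9:33025268-33025296 (plus strand) and chr7:157336865-157336893 (plus strand), in that order. In the HSPA8 window the run ends 42 bases before the start, in HSP90AA1 75, in HSP90AB1 99 and in DNAJB6 118, while in DNAJA1 it begins 3 bases after the start. In HSPD1 the run, of 4 units without a break, ends 227 bases before a second start at 197499840 and lies downstream of the start that faces HSPE1, whose own window lacks it. HSP90AA1 and HSP90AB1 also have further RefSeq starts whose windows lack the run. Of these 6 genes HSPA8, HSP90AB1, HSP90AA1, HSPD1 and DNAJA1 fell and DNAJB6 did not pass. This lies near the 33 of 44 tested members that fell, and nothing is read from it. A pair was present in 12 of 27 members that fell and in 4 of 11 others with a window, beside 16.2% of all genes with a window. A match describes the letters in the window and is not a bound site.

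Other genes of the same machinery, listed by role but with earlier results of these data known, were counted beside the members. Their shares are therefore a description and not an independent check. Of 65 tested genes on these lists 24 (36.9%) fell and 2 (3.08%) rose, with a median log2 fold change of -0.14, beside 16.6% and 14.3% of all genes tested and 27.7% falling at a mean of at least 20 CPM. With the covariate, counted for these lists after seeing the data, 9 of 65 (13.8%) fell, beside 7.20% of all genes, HSBP1 rose, and the median was -0.04. The 9 were RUVBL2, TUBB, TUBB4B, TUBG1, NUDC, TOMM34, HSPA4L, DNAJC8 and LONP1. Among 11 partners of TRiC and of the prefoldin-like complex, 5 (45.5%) fell, led by the AAA ATPase genes RUVBL2 (from 301 ± 28.5 to 198 ± 8.17 CPM, adjusted p = 5.32e-05) and RUVBL1 (from 93.4 ± 8.92 to 70.4 ± 2.42 CPM, adjusted p = 0.000983), and UXT (from 16.9 ± 2.32 to 12.7 ± 0.817 CPM, adjusted p = 0.0115). PDCL, a phosducin-like helper of TRiC, rose from 37.8 ± 1.22 to 45.2 ± 3.23 CPM (adjusted p = 0.0152). Of 11 tubulin, actin and actin-related genes, whose products include TRiC clients, 7 (63.6%) fell. They were led by TUBG1 (from 94.7 ± 9.11 to 64.1 ± 3.01 CPM), TUBB4B (from 367 ± 24.0 to 266 ± 13.3 CPM) and TUBA1C (from 95.5 ± 6.07 to 71.6 ± 3.67 CPM), with adjusted p of 0.000119, 0.000223 and 0.000534 (edgeR).

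Of 10 further HSP90 co-chaperones 5 (50%) fell, and 2 (20%) did so with the covariate. The falls without it were led by NUDC (from 345 ± 33.9 to 222 ± 6.84 CPM, adjusted p = 3.45e-05), TOMM34, which accompanies mitochondrial precursors (from 69.2 ± 4.996 to 46.0 ± 2.84 CPM, adjusted p = 7.16e-05), and SUGT1 (from 105 ± 9.48 to 81.2 ± 2.68 CPM, adjusted p = 0.00156). Of 8 tested further HSP70 genes and cofactors 1 (12.5%) fell, HSPA4L (from 47.3 ± 2.55 to 36.0 ± 3.54 CPM, adjusted p = 0.00243). Of 14 further J-domain genes 3 (21.4%) fell, DNAJC8, DNAJC9 and DNAJC19, and 1 rose, DNAJC13 (from 109 ± 12.5 to 131 ± 6.13 CPM, adjusted p = 0.0185). Of 8 mitochondrial proteases and helpers 3 (37.5%) fell, with a median log2 fold change of -0.06 over the list, and 1 (12.5%) did so with the covariate. The 3 were the protease genes CLPP (from 117 ± 10.8 to 83.9 ± 8.48 CPM), LONP1 (from 259 ± 11.0 to 198 ± 5.95 CPM) and AFG3L2 (from 72.6 ± 3.42 to 63.7 ± 3.16 CPM), with adjusted p of 0.000811, 0.000388 and 0.0437. The shares of falling HSP70, J-domain and mitochondrial genes on these lists lie near the background, and nothing is read from them. That background was 16.6% of all genes tested and 27.7% at a mean of at least 20 CPM. HSF4, HSBP1 and HSPB11 were the tested genes of the last list, and edgeR called 0 of them.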

How the data were processed

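Total RNA of Jurkat cells gave 6 RNA-seq libraries, 3 shCtrl and 3 shSATB1, grouped and numbered by the sample titles. The authors deposited raw read counts per Ensembl gene, 1 table per library. Trim Galore, STAR, HTSeq and hg38 were used, per the submitters' processing notes; not given in the sources used here: versions, annotation, strand setting and RNA selection. The summary lines of each table (outside annotated exons, the unannotated share, 7.77% to 11.7%, and ambiguous, 8.99% to 10.1%) stayed out of library sizes and tests. The ambiguous share was 9.54, 10.1 and 9.84% for shCtrl 1, 2 and 3, against 8.99, 9.32 and 9.03% for shSATB1 1, 2 and 3. It thus differed between the groups without overlap, and its part in the levels of members with overlapping exons was not tested. All 58735 identifiers matched GENCODE 29.

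The test was that of edgeR 4.0.16 in R 4.3.3: TMM, filterByExpr with a minimum count of 10, the quasi-likelihood F test without covariates, and Benjamini-Hochberg adjustment over 17520 genes at 0.05. CPM uses TMM-adjusted library sizes; SE is the log2 fold change over the root of F. Libraries of a group differed beyond counting noise (chi-square per degree of freedom 2.97 to 23.1). Alternatives were DESeq2 size factors, upper quartile, no filter, 1 CPM in 3 libraries, DESeq2 1.42.0, limma-voom 3.58.1, a replicate block, the unannotated share as a covariate, offsets from a lowess trend (span 0.3) of each library on exonic length, a null of 1.2-fold, and leaving out each library; the covariate counts of the other lists were added after seeing the data. Where 15 alternatives are counted for a member, the null of 1.2-fold is left out, and neither HSPH1 nor HSPE1 passed against it. The script was tested on simulated data. Members, lists and settings were chosen with earlier results of these data known. Values in every library were given for TRiC, HSF1 and in each role the 3 called members of largest change, or, with fewer than 2 called, those 2 with the highest CPM; others were added after their values were seen. Figures used matplotlib 3.10.9.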

Additional observations from a re-analysis of the deposited data

How the results depend on the processing

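The direction of 11 members' fold changes turned under an alternative, none with an adjusted p under 0.05 there. With the covariate the log2 fold change was 0.0883 for DNAJA2, 0.0599 for DNAJC7, -0.0553 for FKBP5, 0.134 for HSF2, 0.0567 for HSPA14 (ENSG00000187522), 0.0800 for HSPE1, 0.0382 for PFDN1, 0.214 for PFDN4, 0.0920 for PFDN5 and 0.0110 for VBP1. With offsets for exonic length it was -0.0849 for FKBP5 and 0.0943 for HSF2, without shCtrl replicate 2 0.0394 for HSF2, and without shSATB1 replicate 2 0.0106 for HSPA14 under ENSG00000284024; with 1 library left out at a time these lay between -0.0844 and the value given for HSF2, and between -0.0755 and the value given for HSPA14. With the covariate 15 members fell, their median was -0.15, and 1262 genes fell and 858 rose; with the length offsets the median was -0.26 and 1 member rose. Against a change of 1.2-fold 15 members fell, as did 698 genes, and 758 rose; 14 of these members also fell with the covariate. Leaving out 1 library at a time gave 26 to 36 falling members, 1817 to 3562 falling and 1650 to 3218 rising genes; 24 of the 33 falls held each time. The cause was not tested. Normalization, filters, DESeq2 and limma-voom gave 31 to 34 falling members. Whether replicate numbers pair the libraries is not settled by these values. The correlation of deviations was 0.297, 0.181 and -0.0749 for replicates 1, 2 and 3, against -0.276 to 0.0564 between shCtrl and shSATB1 libraries of different numbers. The replicate block gave 34 falling members, 3120 falling and 2783 rising genes. At this depth genes near 10 CPM, such as HSPE1, rest on 209 to 343 reads.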

Other observations

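HSPA1A and HSPA1B lie in a stretch of chromosome 6 where several neighbouring genes were at 0 in all 6 libraries. HSPA1L, HSPA1A, HSPA1B and C6orf48, which hosts the small nucleolar RNA genes SNORD48 and SNORD52, follow each other between 31809619 and 31839766 (hg38), and each held 0 reads. The genes on both sides were detected, LSM2 at 42.4 to 67.3 CPM and NEU1 at 15.7 to 20.3 CPM. Of the 50-base stretches of HSPA1A, 71.3% occur in transcripts of another GENCODE 29 gene. The zeros were the same in both groups and were chosen for mention after the values were seen; their cause was not tested.

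The ratio of HSPD1 to HSPA9, the mitochondrial HSP60 and HSP70 genes, was 2.24, 2.47 and 2.38 for shCtrl 1, 2 and 3, against 2.83, 2.68 and 2.74 for shSATB1 1, 2 and 3, in CPM. Both genes fell, and HSPA9 was lower relative to HSPD1 in every shSATB1 library, a difference that was not tested. The ratio carries the uncertainty of the HSPD1 level given above.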
